A study of Homo sapiens with 12 samples.

Results

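PLAU, PLAUR, PLAT and SERPINE2 encode the urokinase plasminogen activator, its cell-surface receptor, the tissue plasminogen activator and the activator inhibitor protease nexin-1. These 4 genes, of 18417 measured, were followed in human pancreatic ductal adenocarcinoma cell lines. They were chosen by name with earlier results of these data known, so counts of called members beside all genes are descriptive only. Each was read by its 1 probe set that carries a single gene symbol. These were 7928429 for PLAU on chromosome 10, 8037374 for PLAUR on chromosome 19, 8150509 for PLAT on chromosome 8 and 8059376 for SERPINE2 on chromosome 2. Affymetrix arrays were run on 4 groups of 3: AsPC1-R, a cisplatin-resistant derivative of AsPC1; its parent AsPC1; BxPC3-R, a cisplatin-resistant derivative of BxPC3; and its parent BxPC3. Cisplatin damages cells by binding DNA. The maintenance medium of AsPC1-R held it at 1.67 µM and that of BxPC3-R at 0.60 µM, and the parental lines were grown in the same kind of medium with no drug named. The drug was left out of the last passage, so all cells were taken as subconfluent cultures free of cisplatin.

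The plasminogen system turns the circulating proenzyme plasminogen into plasmin, a broad protease that dissolves fibrin and degrades matrix. Urokinase acts mostly at the cell surface, where its receptor holds it, while the tissue activator works best when bound to fibrin or to annexin A2. Serpins such as protease nexin-1 block both activators by forming covalent complexes that cells then take up through receptors of the LDL receptor family. In pancreatic ductal adenocarcinoma both activators and the urokinase receptor are known to be produced by the tumour cells, and the system has been studied there for its part in invasion.

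Promoter windows of 300 bases, mostly ahead of an annotated start, were given for 3 of the 4 members in RefSeq tables of GRCh38.p14. They are shown because PLAU and PLAUR are known targets of the AP-1 and ETS factors described further on, and because the SERPINE2 window holds a repeat. Each is printed 5′ to 3′ on the gene's strand. Capitals mark matches on either strand to AP-1 (TGANTCA), ETS (GGAAGT), NF-kB, Sp1 (GGGCGG) and CCAAT, and no matches overlapped. The PLAU window is chr10:73910882-73911181 on the plus strand, the PLAUR window is chr19:43670120-43670419 on the minus strand, and the SERPINE2 window is chr2:224031429-224031728 on the minus strand.
PLAU: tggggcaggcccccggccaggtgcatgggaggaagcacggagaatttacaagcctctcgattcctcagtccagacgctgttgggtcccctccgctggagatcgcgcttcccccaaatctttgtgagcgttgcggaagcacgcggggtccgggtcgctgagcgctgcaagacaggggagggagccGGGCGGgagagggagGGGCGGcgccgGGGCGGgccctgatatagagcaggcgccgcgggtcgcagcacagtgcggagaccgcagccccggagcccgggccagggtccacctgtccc
PLAUR: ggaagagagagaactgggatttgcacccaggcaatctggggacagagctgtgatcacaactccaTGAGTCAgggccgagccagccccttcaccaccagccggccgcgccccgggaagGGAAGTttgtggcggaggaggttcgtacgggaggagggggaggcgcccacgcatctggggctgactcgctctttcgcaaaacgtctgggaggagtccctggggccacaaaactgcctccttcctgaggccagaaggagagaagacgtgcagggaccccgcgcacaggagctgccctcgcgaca
SERPINE2: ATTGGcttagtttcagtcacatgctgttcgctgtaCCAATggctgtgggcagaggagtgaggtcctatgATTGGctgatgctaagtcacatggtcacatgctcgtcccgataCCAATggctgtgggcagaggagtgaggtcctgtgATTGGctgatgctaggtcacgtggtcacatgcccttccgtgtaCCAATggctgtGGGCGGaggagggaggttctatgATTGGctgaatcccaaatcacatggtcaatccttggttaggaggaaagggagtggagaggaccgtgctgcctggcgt

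The PLAU window held 3 Sp1 matches, at -66, -51 and -40 from the start. The PLAUR window held 1 AP-1 match at -186 and 1 ETS match at -133. In all 35116 windows of this length, the shares with at least 1 match were 7.71% for AP-1, 22.8% for ETS, 0.558% for NF-kB, 45.0% for Sp1 and 34.6% for CCAAT. The SERPINE2 window held 7 CCAAT matches, 3 forward and 4 reverse, and 1 Sp1 match at -50; only 8 windows of all (0.0228%) held as many CCAAT letters. The forward matches lay 77 bases apart, and the 77-base units that begin at them were identical at 89.6% of positions between the first and second and at 58.4% between the second and the third. A second PLAU window, chr10:73910360-73910659, held 1 CCAAT match, and a second SERPINE2 window, chr2:224038591-224038890, held 2 Sp1 matches. A match describes letters and is not a measured site, and binding was not measured here.

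All levels are log2 values, for which array medians lay between 6.481 and 6.646. Whether the arrays of a group are separate cultures is not stated in the labels, and p-values then cover no more than the spread between these arrays, which may be technical. With 1 derivative per line, resistance cannot be told apart from other features of that derivative. Background was not measured. CDKN2A, deleted in BxPC3, read 6.22 there, and SMAD4, also deleted, read 4.70, so changes among levels of about 6.22 or less are uncertain in size. CDKN2A was itself called lower in BxPC3-R than in BxPC3 (-0.47, limma adjusted p = 0.0249), so calls among such levels are uncertain too. All members lay above 6.22. All 7 ductal epithelial markers reached 6.554, the median of all values, with summed levels of 14.29 to 14.44 in AsPC1-R, 14.48 to 14.75 in AsPC1, 14.19 to 14.26 in BxPC3-R and 13.97 to 14.06 in BxPC3. BxPC3 replicate 2 stood apart: of the 3 BxPC3 arrays it was the highest for all 50 genes with the greatest surplus in AsPC1 relative to BxPC3-R, with a median surplus of 0.83 over the other BxPC3 arrays. Comparisons that use BxPC3 are therefore also given without it for the members and for the pathway genes named in BxPC3-R.

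The levels differed in order from gene to gene. PLAU was lowest in AsPC1 at 8.54 ± 0.04 (mean ± SD, n = 3 in every group), followed by BxPC3-R at 9.48 ± 0.09, AsPC1-R at 10.04 ± 0.04 and BxPC3 at 10.05 ± 0.08, and the arrays of the last pair overlapped. PLAUR differed little, from 9.9 ± 0.19 in BxPC3 through 9.94 ± 0.09 in AsPC1 and 9.99 ± 0.09 in BxPC3-R, 3 groups that overlapped, to 10.42 ± 0.12 in AsPC1-R, which stood above them. PLAT ran from 8.05 ± 0.05 in BxPC3-R to 9.17 ± 0.2 in BxPC3, 9.53 ± 0.17 in AsPC1, which overlapped BxPC3, and 11.51 ± 0.02 in AsPC1-R. SERPINE2 was lower in both BxPC3 groups, at 10.47 ± 0.23 in BxPC3 and 11.26 ± 0.15 in BxPC3-R, than in AsPC1 at 12.68 ± 0.07 and AsPC1-R at 12.76 ± 0.07, which overlapped each other.

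**Figure D1:**
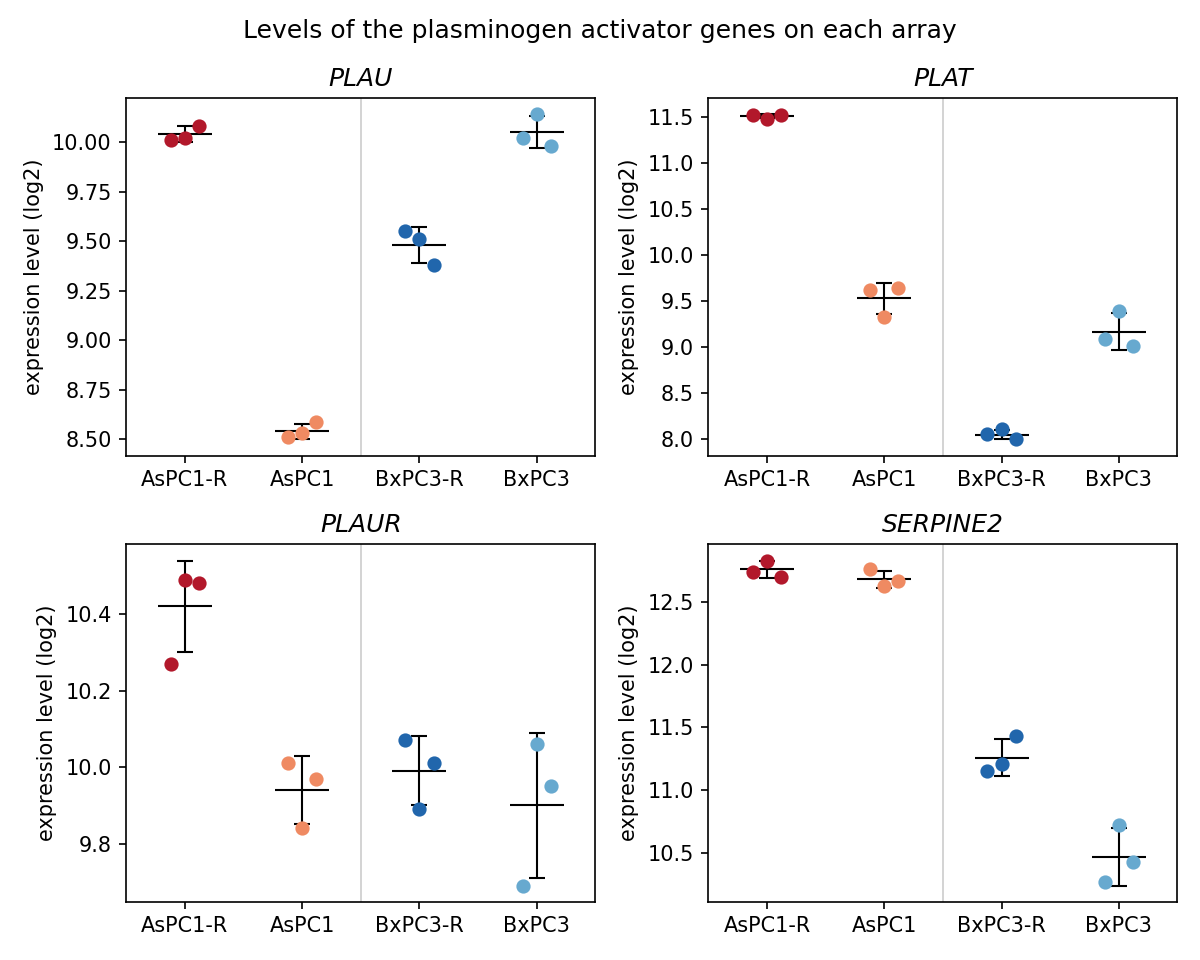
Levels of the 4 members on every array (log2, vertical axis) by group, with the derivative left of its parent; points are arrays and bars give mean and SD (n = 3). PLAT in AsPC1-R lies at 11.48 to 11.52, above all other arrays, while PLAU in AsPC1-R lies among the BxPC3 arrays.

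The first comparison asked how the cisplatin-resistant AsPC1-R differs from AsPC1. Both activators and the urokinase receptor rose in AsPC1-R, and the inhibitor SERPINE2 did not pass the test. PLAU read 10.01, 10.02 and 10.08 in AsPC1-R, against 8.51, 8.53 and 8.59 in AsPC1. The groups did not overlap, and PLAU rose by 1.5 (SE 0.08), or 2.82-fold (limma, adjusted p = 9.16e-09). PLAT read 11.52, 11.48 and 11.52 in AsPC1-R, against 9.62, 9.33 and 9.64 in AsPC1. All AsPC1-R arrays were above all AsPC1 arrays, and PLAT rose by 1.98 (SE 0.11), or 3.93-fold (limma, adjusted p = 1.60e-08).

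The receptor gene PLAUR moved less. It read 10.27, 10.49 and 10.48 in AsPC1-R, against 10.01, 9.84 and 9.97 in AsPC1, again without overlap. The rise was 0.48 (SE 0.11), or 1.39-fold (limma, adjusted p = 0.00518). SERPINE2 read 12.74, 12.83 and 12.70 in AsPC1-R, against 12.76, 12.63 and 12.67 in AsPC1. These arrays overlapped, and the difference was 0.07 with a 95% interval of -0.17 to 0.31 (limma, adjusted p = 0.698). Of the 4 members 3 were called at an adjusted p under 0.05, against 20.3% of all genes, and 2 changed at least 2-fold, against 2.33%. Arrays did not overlap for 3 members, against 33.4% of genes. By size of change PLAT ranked 98 and PLAU 174 of 18417.

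The second comparison set BxPC3-R against BxPC3. Here both activators fell, SERPINE2 rose and the receptor did not pass the test. PLAU read 9.55, 9.51 and 9.38 in BxPC3-R, against 10.02, 10.14 and 9.98 in BxPC3. All BxPC3-R arrays were below all BxPC3 arrays, and the change was -0.56 (SE 0.08), or 1.48-fold lower (limma, adjusted p = 1.32e-04). PLAT read 8.06, 8.11 and 8.0 in BxPC3-R, against 9.09, 9.39 and 9.01 in BxPC3. The groups lay well apart, with a change of -1.11 (SE 0.11), or 2.16-fold lower (limma, adjusted p = 6.15e-06).

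SERPINE2 read 11.15, 11.21 and 11.43 in BxPC3-R, against 10.27, 10.72 and 10.43 in BxPC3. The arrays did not overlap, and this inhibitor gene rose by 0.79 (SE 0.11), or 1.73-fold (limma, adjusted p = 1.70e-04). PLAUR read 10.07, 9.89 and 10.01 in BxPC3-R, against 9.69, 10.06 and 9.95 in BxPC3, and the arrays overlapped. Its difference was 0.09, with a 95% interval of -0.14 to 0.31 (limma, adjusted p = 0.655), and -0.02 without BxPC3 replicate 1. Of the 4 members 3 were called, against 20.8% of all genes, 1 changed at least 2-fold, against 2.32%, and arrays did not overlap for 3, against 38.2%. Without BxPC3 replicate 2 the changes were -0.52 for PLAU, -1.0 for PLAT, 0.92 for SERPINE2 and 0.17 for PLAUR, and the same 3 were called.

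The third comparison asked whether the derivatives changed differently, by subtracting the change in BxPC3-R from that in AsPC1-R. The difference was 2.06 (SE 0.11) for PLAU (limma, adjusted p = 1.16e-08) and 3.09 (SE 0.15) for PLAT (limma, adjusted p = 5.67e-09), so both activators changed differently, each called in opposite directions. Of all genes, 3.43% were called higher in AsPC1-R and lower in BxPC3-R, and 2 of the 4 members were. SERPINE2 differed the other way, by -0.72 (SE 0.16; limma, adjusted p = 0.0041). Without BxPC3 replicate 2 these differences were 2.02 for PLAU, 2.97 for PLAT and -0.84 for SERPINE2, all called. For PLAUR the difference was 0.39, with a 95% interval of 0.07 to 0.71, and did not pass the test (limma, adjusted p = 0.0734), so the change is not shown to differ between the derivatives. Without BxPC3 replicate 1 the difference was 0.49 and passed (limma, adjusted p = 0.0199), while without BxPC3 replicate 2 it was 0.31 (adjusted p = 0.171). Of the 4 members 3 were called, against 25.4% of all genes.

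**Figure D2:**
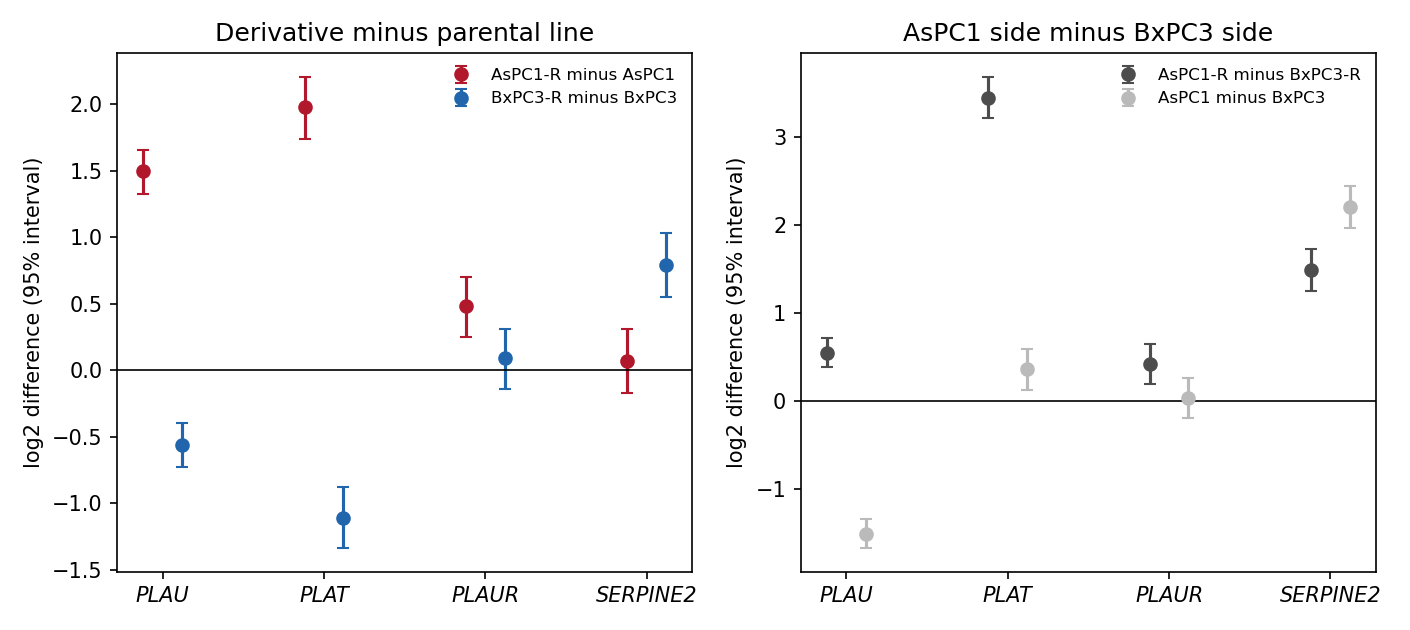
Log2 differences (vertical axis) of the 4 members, with 95% intervals from limma (12 arrays). Shown are each derivative minus its parent, AsPC1 minus BxPC3 and AsPC1-R minus BxPC3-R. PLAU and PLAT lie above 0 for AsPC1-R minus AsPC1 and below 0 for BxPC3-R minus BxPC3. The SERPINE2 interval spans 0 for AsPC1-R minus AsPC1.

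The parental lines differed before any derivative was compared. PLAU was lower in AsPC1 than in BxPC3, by 2.84-fold (-1.51, SE 0.08; limma, adjusted p = 9.61e-10). SERPINE2 was 4.63-fold higher in AsPC1 (2.21, SE 0.11; limma, adjusted p = 8.15e-10). PLAT was 1.29-fold higher in AsPC1 (0.37, SE 0.11; limma, adjusted p = 0.0121), but its arrays overlapped those of BxPC3, and the call was lost without BxPC3 replicate 3 (0.29, limma adjusted p = 0.0625). PLAUR differed by 0.04, with an interval of -0.19 to 0.27 (limma, adjusted p = 0.768). Of the 4 members 3 were called, against 50.6% of all genes, and 2 did not overlap, against 54.3%, so these counts do not stand out from the many genes that separate the lines. Without BxPC3 replicate 2 the differences were -1.46 for PLAU, 2.34 for SERPINE2, 0.48 for PLAT and 0.12 for PLAUR, and the calls were the same.

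All 4 members were higher in AsPC1-R than in BxPC3-R. PLAT differed by 3.45 (SE 0.11), or 10.96-fold (limma, adjusted p = 6.59e-12), and ranked 253 of all genes by size. SERPINE2 was 2.81-fold higher (1.49, SE 0.11; limma, adjusted p = 7.33e-08). PLAU was 1.47-fold higher (0.55, SE 0.08; limma, adjusted p = 3.88e-05), where in the parental lines it was lower in AsPC1. PLAUR was 1.34-fold higher (0.43, SE 0.11; limma, adjusted p = 0.00411). Of all genes 43.3% were called here in either direction, 21.3% were called higher in AsPC1-R, and 55.4% did not overlap.

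The rest of the pathway was read from 6 lists, of which 68 genes were measured. In AsPC1-R 12 of them rose and 7 fell, which is 27.9%, beside 20.3% of all genes, and the median change was -0.04, beside -0.05 over all genes. In BxPC3-R 5 rose and 16 fell, which is 30.9%, beside 20.8%, with a median of -0.01, beside 0.02; without BxPC3 replicate 2, 6 rose and 13 fell. The difference between the derivatives was called positive for 20 and negative for 11 of the 68, and for 17 and 12 without that array, beside the 25.4% of all genes called in either direction. The split by direction moved with the scaling: with arrays centred on their medians it was 16 positive and 14 negative for the difference and 9 higher and 14 lower in BxPC3-R. Over all genes, the share of calls that were positive was 55.4% for the difference and 44.4% after centring, and in BxPC3-R the higher share was 46.9% and 56.7% after centring. The lists below are small, and their counts are read against the same 20.3% and 20.8%.

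**Figure D3:**
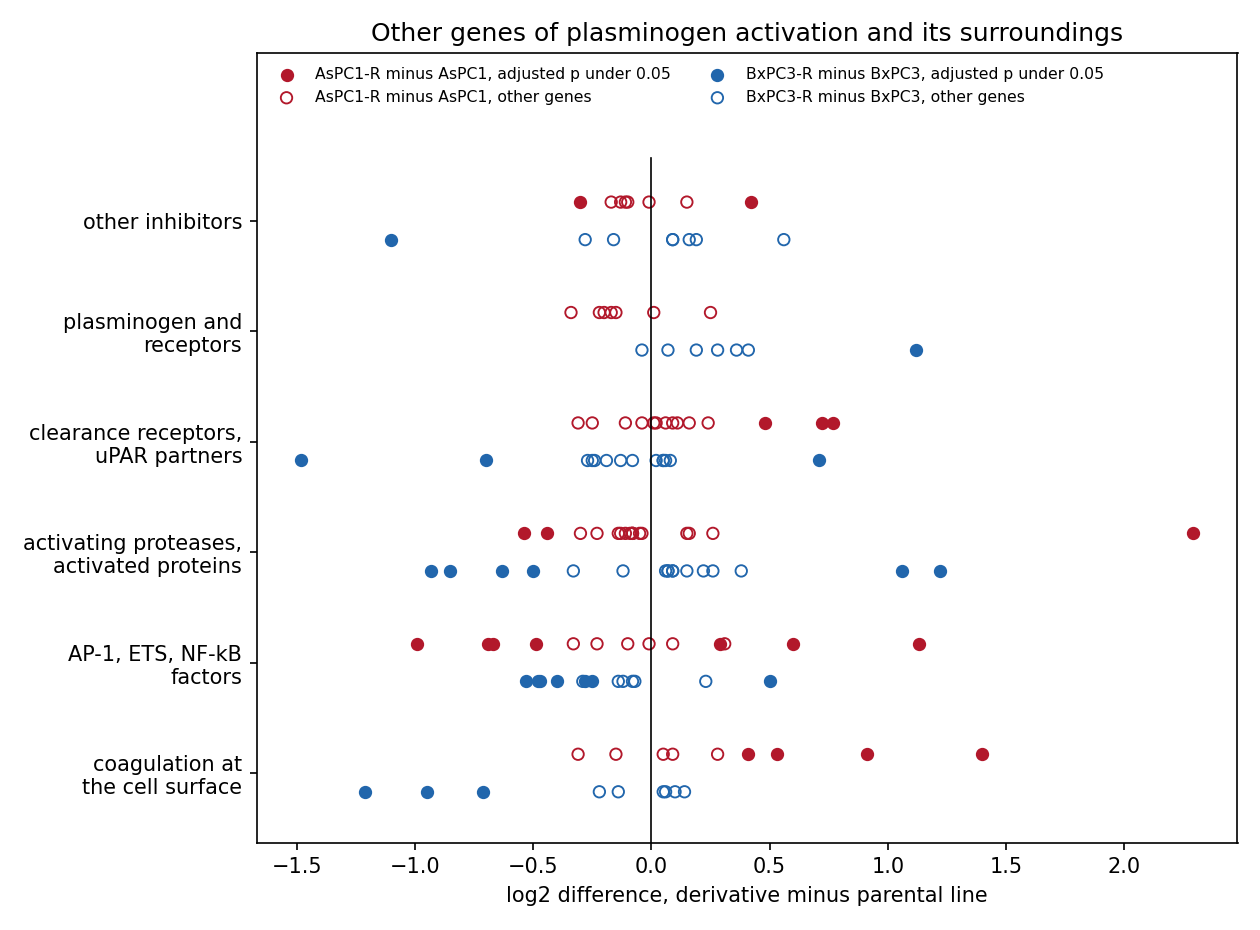
Log2 changes of the measured genes in 6 pathway lists, AsPC1-R minus AsPC1 and BxPC3-R minus BxPC3, 1 point a gene. The coagulation list has 4 genes that rose in AsPC1-R and 3 that fell in BxPC3-R, and MMP1 at 2.29 is the farthest point to the right.

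Among 8 other inhibitors of the activators or of plasmin, in AsPC1-R 1 rose and 1 fell, and in BxPC3-R 0 rose and 1 fell. SERPINI1, the gene of neuroserpin, which inhibits the tissue activator, read 5.3 ± 0.13 in AsPC1-R and 4.88 ± 0.11 in AsPC1, and 5.31 ± 0.05 in BxPC3-R and 6.41 ± 0.19 in BxPC3. It rose by 0.42 (SE 0.11; limma, adjusted p = 0.0122) and changed by -1.10 (SE 0.11; limma, adjusted p = 5.85e-06), the directions of PLAT, but most of these levels lie in the range of the deleted genes, and the rise was lost without AsPC1-R replicate 2 (limma, adjusted p = 0.0582). The change in BxPC3-R was -1.0 without BxPC3 replicate 2 and was called. PZP, a broad protease inhibitor of the alpha-2-macroglobulin kind, fell by 0.30 in AsPC1-R (limma, adjusted p = 0.0489). That call was lost when any of 10 of the 12 arrays was left out. PZP also read only 4.73 in AsPC1-R and 5.02 in AsPC1, in the range of the deleted genes. TFPI2, an inhibitor of plasmin, read 4.17 ± 0.64 in AsPC1-R and 4.18 ± 0.05 in AsPC1, against 10.34 ± 0.06 in BxPC3-R and 9.78 ± 0.24 in BxPC3.

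The proenzyme gene PLG, made mainly by liver, read 5.04 in AsPC1-R and 5.18 in AsPC1, and 5.05 in BxPC3-R and 4.97 in BxPC3, at the level of the deleted genes. Of the 7 genes of plasminogen and its cell-surface receptors, 0 rose and 0 fell in AsPC1-R, and 1 rose and 0 fell in BxPC3-R. That was KRT8, a keratin that also binds plasminogen at the surface of carcinoma cells, at 10.92 ± 0.06 in BxPC3-R and 9.8 ± 0.18 in BxPC3 (1.12, SE 0.13; limma, adjusted p = 2.56e-05). Its change was 1.17 without BxPC3 replicate 2. KRT8 is also one of the epithelial markers, whose summed level was higher in BxPC3-R, and the part of this in the result was not tested.

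Of 14 clearance receptors and integrin or other partners of the urokinase receptor, 3 rose and 0 fell in AsPC1-R. These were the integrin subunit genes ITGA5 (0.77, SE 0.12), ITGA3 (0.72, SE 0.10) and ITGAV (0.48, SE 0.08). ITGA5 read only 6.06 in AsPC1, within the range of the deleted genes. In BxPC3-R 1 rose and 2 fell. The integrin subunit gene ITGB5 rose by 0.71 (SE 0.10), ITGB3 changed by -1.48 (SE 0.13), and VLDLR, a receptor that takes up activator and inhibitor complexes, by -0.70 (SE 0.12). Without BxPC3 replicate 2 these were 0.8, -1.32 and -0.6, in that order of genes, all called. ITGB3 read 5.45 ± 0.06 in BxPC3-R and 6.93 ± 0.29 in BxPC3, so the size of its fall is uncertain at the lower end.

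Of 17 proteases that activate pro-urokinase and proteins that urokinase or plasmin activates, 1 rose and 2 fell in AsPC1-R. MMP1, the interstitial collagenase that plasmin can activate, read 8.36 ± 0.06 in AsPC1-R and 6.06 ± 0.3 in AsPC1, a rise of 2.29 (SE 0.15; limma, adjusted p = 1.11e-07) whose size is uncertain, since its parental level lies in that range too. MMP7, matrilysin, changed by -0.54 (SE 0.11) and MMP3, stromelysin 1, by -0.44 (SE 0.13). The MMP3 call was lost without any 1 of 4 arrays of these groups (limma, adjusted p up to 0.0937). MMP3 also read only 4.77 in AsPC1-R and 5.21 in AsPC1, so the size of its fall is uncertain. In BxPC3-R 2 rose and 4 fell. MMP10, stromelysin 2, rose by 1.22 (SE 0.14) and MMP13, collagenase 3, by 1.06 (SE 0.17). MMP10 read 7.03 in BxPC3-R but 5.81 in BxPC3, in the range of the deleted genes, so the size of its rise is uncertain. MMP7 fell as it did in AsPC1-R (-0.63, SE 0.11; limma, adjusted p = 0.00111). ST14, the gene of matriptase, which activates pro-urokinase, read 8.55 ± 0.11 in BxPC3-R and 9.47 ± 0.12 in BxPC3 (-0.93, SE 0.10; limma, adjusted p = 1.47e-05). Without BxPC3 replicate 2, 3 rose and 4 fell, and the changes were 1.36 for MMP10, 1.24 for MMP13, -0.49 for MMP7 and -0.87 for ST14, all called.

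Of 13 AP-1, ETS and NF-kB factor genes, 3 rose and 4 fell in AsPC1-R, and 1 rose and 6 fell in BxPC3-R, or 1 and 3 without BxPC3 replicate 2. ETS1, an ETS factor, read 9.81 ± 0.08 in AsPC1-R and 8.68 ± 0.07 in AsPC1, a rise of 1.13 (SE 0.08; limma, adjusted p = 2.85e-07). In BxPC3-R it read 9.97 ± 0.06, against 10.22 ± 0.09 in BxPC3 (-0.25, SE 0.08; limma, adjusted p = 0.0417), a call lost without any 1 of 6 arrays, BxPC3 replicate 2 among them (-0.21, adjusted p = 0.146). The AP-1 gene FOS changed by -0.99 (SE 0.11) in AsPC1-R and by -0.40 (SE 0.11) in BxPC3-R, and the call in BxPC3-R was lost without BxPC3-R replicate 3 (limma, adjusted p = 0.0594) and without BxPC3 replicate 2 (-0.32, limma adjusted p = 0.0774). FOSB changed by -0.69 (SE 0.10) in AsPC1-R. JUNB fell in both derivatives, by -0.49 (SE 0.1; limma, adjusted p = 0.00267) in AsPC1-R, and its difference between them, 0.04, was not called. In BxPC3-R the AP-1 genes FOSL1 and JUNB changed by 0.50 (SE 0.13) and -0.53 (SE 0.10), and the NF-kB subunit gene REL by -0.48 (SE 0.09). The FOSL1 call was lost without any 1 of 3 arrays (limma, adjusted p up to 0.0724), and without BxPC3 replicate 2 the changes were 0.53 for FOSL1, -0.54 for JUNB and -0.52 for REL, all called. The PLAUR window printed above holds 1 match for AP-1 and 1 for ETS, while neither PLAU window holds a match for AP-1 or ETS.

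Of 9 measured genes that start or control coagulation at the cell surface, 4 rose and 0 fell in AsPC1-R, which is 44.4%, beside 20.3% of all genes, with a median of 0.28, beside -0.05. In BxPC3-R 0 rose and 3 fell, which is 33.3%, beside 20.8%, with a median of -0.14, beside 0.02; after median centring 4 rose and 1 fell in AsPC1-R. PROS1 encodes protein S, a cofactor of activated protein C. It read 9.6 ± 0.16 in AsPC1-R and 8.21 ± 0.16 in AsPC1 (1.40, SE 0.11; limma, adjusted p = 8.80e-07), and 5.87 ± 0.02 in BxPC3-R and 7.08 ± 0.19 in BxPC3 (-1.21, SE 0.11; limma, adjusted p = 4.38e-06). The BxPC3-R level lies in the range of the deleted genes. THBD, thrombomodulin, rose by 0.91 (SE 0.08) in AsPC1-R and changed by -0.71 (SE 0.08) in BxPC3-R. F2R, a thrombin receptor, rose by 0.53 (SE 0.10) in AsPC1-R. TFPI, the tissue factor pathway inhibitor, changed by -0.95 (SE 0.09) in BxPC3-R. Without BxPC3 replicate 2 the BxPC3-R changes were -1.11 for PROS1, -0.73 for THBD and -1.0 for TFPI, all called.

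PLAT, THBD and PROS1 are also made by endothelium, so its markers were read beside them. Of 5 endothelial markers, 0 rose and 2 fell in BxPC3-R, with summed levels of 8.59 to 8.67 in BxPC3-R and 9.95 to 10.14 in BxPC3, and 1 rose and 0 fell in AsPC1-R, with sums of 8.71 to 8.79 in AsPC1-R and 8.48 to 8.93 in AsPC1. CDH5 read 6.67 in BxPC3-R and 9.34 in BxPC3, and PECAM1 changed by -1.24 in BxPC3-R and 0.66 in AsPC1-R. PECAM1 read 7.28 in BxPC3, but 6.04 in BxPC3-R, 6.35 in AsPC1-R and 5.69 in AsPC1. Apart from BxPC3, these levels lie within or near the range of the deleted genes, so the PECAM1 changes are uncertain. Of 6 fibroblast markers, 0 rose and 1 fell in AsPC1-R, with sums of 10.66 to 10.87 in AsPC1-R and 11.6 to 11.79 in AsPC1, and 2 rose and 0 fell in BxPC3-R, with sums of 8.72 to 8.82 in BxPC3-R and 8.43 to 8.51 in BxPC3. The gene that fell in AsPC1-R was LUM, at 10.51 in AsPC1-R and 11.55 in AsPC1, and it makes up most of the sums in both; the other 5 markers were not called there. LUM and FAP were the 2 that rose in BxPC3-R. LUM read 4.91 in BxPC3, and FAP read 5.39 in BxPC3-R and 4.66 in BxPC3, all in the range of the deleted genes. Of 5 leukocyte markers, 1 rose and 0 fell in AsPC1-R and 0 rose and 1 fell in BxPC3-R, with sums between 7.8 and 8.25 over all groups. These were ITGAM, at 6.51 in AsPC1-R and 6.07 in AsPC1, and CD3E, at 5.44 in BxPC3-R and 5.91 in BxPC3. No leukocyte marker reached 6.554 in any group mean, so these calls are uncertain. Of 3 acinar markers, 0 rose and 1 fell in AsPC1-R and none was called in BxPC3-R, with sums between 7.77 and 8.21. The 7 ductal epithelial markers were mixed: 1 rose and 2 fell in AsPC1-R, and 3 rose and 1 fell in BxPC3-R. MUC1 changed by 0.72 in AsPC1-R and -0.75 in BxPC3-R, the directions of PLAU and PLAT. KRT18 went the other way, by -0.51 in AsPC1-R and 0.78 in BxPC3-R. The part of these markers in the results was not tested.

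The genes most like each member were found by Pearson correlation over the 12 arrays among 12331 genes. The arrays lie in 4 groups that share lines, so these values describe the pattern of group means. For PLAU they were KYNU at 0.992, GPX2 at 0.991 and TCN1 at 0.991, and for PLAT REPS2 at 0.994, NRCAM at 0.994 and WDR45 at 0.984. KYNU, an enzyme of tryptophan breakdown, changed by 4.12 in AsPC1-R and -1.5 in BxPC3-R, and NRCAM, a neural adhesion molecule, by 3.15 and -2.20 in the same derivatives. For PLAUR they were SNF8 at 0.966, YIF1A at 0.949 and BET1L at 0.938. For SERPINE2 they were GEM at 0.996, NPAS2 at 0.994 and DPY19L1 at 0.994, of which GEM, a small GTPase, rose by 1.00 in BxPC3-R. Between members r lay between -0.437, for PLAU with SERPINE2, and 0.762, for PLAUR with PLAT, and PLAU with PLAT gave 0.291.

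**Figure D4:**
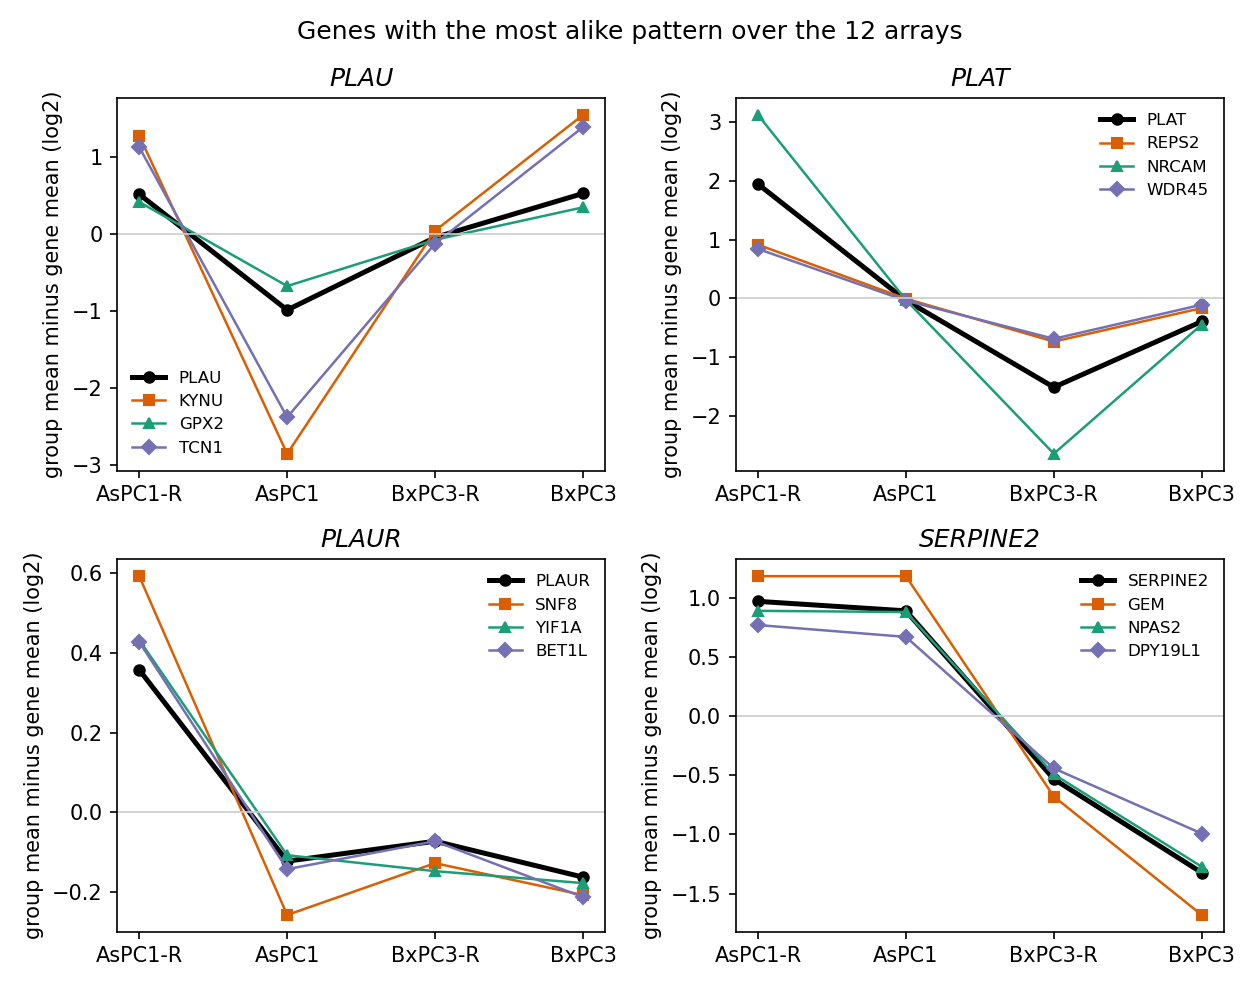
Group means (log2), less the mean of the gene, for each member and for the 3 genes most like it by Pearson correlation over the 12 arrays. Differences in level between genes and the spread between arrays are not shown. The genes most like PLAU and PLAT are high in AsPC1-R relative to AsPC1 and low in BxPC3-R relative to BxPC3, the pattern by which they were chosen.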

How the data were processed

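Total RNA was amplified to cDNA, biotin-labelled and read on 12 Affymetrix arrays, per the labels' protocols. The deposited values are log2 levels per probe set, made with Affymetrix Expression Console and RMA, per the submitters' processing notes; their versions, the annotation release and the build are not stated in any source used. RMA evens out array distributions, so a change shared by most genes would not show.

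Of 33297 probe sets, the 19460 with 1 gene symbol were used. For 769 genes with several, the one with the highest mean was taken, which gave 18417 genes. limma 3.58.1 in R 4.3.3 (lmFit, eBayes, a mean per group, all 12 arrays, 8 residual and 5.47 prior degrees of freedom) tested each contrast, two-sided, with Benjamini-Hochberg adjustment over all genes and calls at an adjusted p under 0.05. Errors in parentheses are standard errors. Folds are of RMA values, whose precision is limited by how many arrays were run. Code was tested on simulated data.

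The members and lists were chosen with earlier results of these data known. Named genes were the members, up to 3 genes per list with the largest called change in each derivative, up to 1 per other comparison, PLG, SMAD4, CDKN2A and the 3 genes most like each member among those whose highest group mean reached 6.554, the median of all values. Markers were named where they moved with a result. The alternatives were an adjusted p under 0.01, a block for replicate number, a filter on dim genes, median centring, a repeated quantile normalization, limma's trended robust variance, a fit of just the groups in a comparison, averaged or separately tested probe sets, and omission of each array in turn. The pathway counts without BxPC3 replicate 2 and under other scalings were added after the values were seen.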

Additional observations from a re-analysis of the deposited data

Results flagged for a closer look

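The results here were singled out because the change in AsPC1-R, less the change in BxPC3-R, passed limma's test of that difference at an adjusted p under 0.05. The rule was applied to the members, the named pathway genes and the genes most like a member, so other genes of the lists also passed, and over the 6 lists 20 differences were called positive and 11 negative. All values are log2 differences, positive where AsPC1-R changed more in the upward direction. Among the members these were PLAU 2.06, PLAT 3.09 and SERPINE2 -0.72. PLAUR, at 0.39, was not among them.

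Among the named inhibitors and plasminogen receptors the differences were SERPINI1 1.52, PZP -0.49 and KRT8 -1.46. Among the named integrin and clearance receptor genes they were ITGA5 0.9, ITGA3 0.96, ITGAV 0.68, ITGB3 1.64, ITGB5 -0.69 and VLDLR 0.75. Among the named proteases they were MMP1 1.92, MMP3 -0.67, MMP10 -0.95, MMP13 -1.36 and ST14 0.89. Among the named transcription factors they were ETS1 1.38, FOS -0.59, FOSB -0.55 and REL 0.38, and among the named coagulation genes PROS1 2.61, THBD 1.62, F2R 0.48 and TFPI 1.0. SERPINI1, ETS1, PROS1 and THBD were called in opposite directions in the derivatives, as PLAU and PLAT were, although the SERPINI1 rise and the ETS1 fall were each lost under some alternatives. The REL call was lost without any 1 of 7 arrays (limma, adjusted p up to 0.0922) and the PZP call without any 1 of 2 (adjusted p up to 0.0519). The F2R call was lost after quantile normalization once more (0.38, limma adjusted p = 0.0935).

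Of the genes most like a member, the differences were KYNU 5.62, GPX2 1.51 and TCN1 5.01 for PLAU, SNF8 0.77 and YIF1A 0.51 for PLAUR, REPS2 1.5, NRCAM 5.35 and WDR45 1.46 for PLAT, and GEM -1.0, NPAS2 -0.77 and DPY19L1 -0.45 for SERPINE2. These genes were chosen for a pattern over the same arrays, so their differences follow from the choice. With 3 arrays a group, no gene's values were tested for a single outlying array; the description of BxPC3 replicate 2 is not such a test.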

How the results depend on the processing

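Of 416 member values under the alternatives, 409 kept their direction and side of the threshold. The difference between the derivatives for PLAUR passed at 0.39 with dim genes left out (adjusted p = 0.0471) and at 0.39 with trend and robust (0.0364), both by limma, and ranged from 0.31 to 0.49 with each array left out, passing at 0.49 without BxPC3 replicate 1 (0.0199). PLAT in AsPC1 minus BxPC3, at 0.37, missed an adjusted p under 0.01 (0.0121) and ranged from 0.29 to 0.48, missing the threshold without BxPC3 replicate 3 (0.29, 0.0625). PLAUR ranged from -0.02 to 0.17 in BxPC3-R minus BxPC3 and from -0.06 to 0.12 in AsPC1 minus BxPC3, turning sign without BxPC3 replicate 1, uncalled throughout. At an adjusted p under 0.01, the numbers of genes called were 2279 for AsPC1-R, 2495 for BxPC3-R and 2998 for the difference, against 3730, 3826 and 4685; the stricter threshold itself lowers these counts. With each array left out, the counts were 2869 to 4246, 2970 to 4181 and 3961 to 5296. With the replicate number as a block, 3553, 3661 and 4525 genes were called and no member call changed. Same-numbered arrays deviated together with r between -0.239 and 0.34 (median 0.026, 18 pairs). For other-numbered arrays r lay between -0.323 and 0.257 (median -0.0085, 36 pairs). These values cannot show whether same-numbered arrays share a culture or batch, since each deviation is taken from a mean of the same few arrays. Uncalled values that turned sign were, in AsPC1-R, TFPI2 (0.05 after quantile normalization, -0.2 to 0.36 with an array left out), ITGB5 (-0.06, and -0.01 to 0.07) and ST14 (-0.1 to 0.03); in BxPC3-R, F2R (-0.02 to 0.15) and PLG (-0.07 to 0.28); and for the difference MMP7 (-0.06 to 0.21) and JUNB (-0.07 after quantile normalization, -0.02 after centring, -0.05 to 0.12). The causes were not tested. Only the groups compared could not be run for the difference, which needs all 4 groups.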
